A study of Mus musculus with 64 samples.

Results

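Dazl, Ddx4, Mael, Sycp1, Sycp3, Stk31, Asz1 and Tdrkh, 8 of the 23338 genes counted in every library, were followed through early embryos, embryonic stem (ES) cells and liver of the mouse. They were chosen by name as genes of the germline whose promoters are known to be silenced by DNA methylation in the soma, and all 8 were found under their symbols. DNA methylation itself was not measured. In these libraries 7 of the 8 had their lowest levels in liver, whereas Tdrkh had its highest mean level in fetal liver, so the label does not describe Tdrkh here.

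RNA-seq counts from 64 samples of C57BL/6 mice (the substrain C57BL/6 J in the study's methods) were used: 12 individual eight-cell embryos (6 male, 6 female), 4 ES cell lines (2 male, 2 female), 24 fetal livers (12 male, 12 female) and 24 adult livers (12 male, 12 female). The labels name no treatment and no engineered allele. The embryos were collected at 2.5 dpc from natural matings and came from 4 litters, but which embryo belonged to which litter is not given in the sources used here. The ES lines, which are male lines 1 and 2 and female lines 3 and 4, had been derived from embryos of that stage in 2i medium with LIF (inhibitors that keep cells in a ground state of pluripotency, plus a cytokine). Each line is a single derivation, and the spread among the 4 includes differences between lines. The livers came from fetuses late in gestation and from adults of 15 to 20 weeks. Embryo RNA was amplified by a protocol designed for single cells, while the other libraries were made from total RNA with a stranded kit, and in every comparison with the embryos the effects of stage and of protocol cannot be told apart.

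Germ cells need proteins that somatic cells do without: RNA-binding proteins that control translation, the piRNA machinery that silences transposons, and the synaptonemal complex that holds homologous chromosomes together in meiosis. Many of these genes have CpG-rich promoters that become methylated when the embryo implants and stay methylated in somatic tissue. They are unmethylated in the germ line itself. Before methylation is laid down, and alongside it, the same promoters are held down by the variant Polycomb complex PRC1.6, whose DNA-binding subunits E2F6 and MGA with MAX recognise short motifs, the E-box among them. ES cells grown in 2i have little DNA methylation, and some germline genes are known to be transcribed in them.

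The promoters are shown first, because their sequence is what this kind of silencing acts on. RefSeq windows of 300 bases (250 before the start of transcription and 50 after it, GRCm38.p6) were found for all 8 genes, with a second window for Stk31 that overlaps the first. In each was sought the E-box CACGTG, which reads the same on both strands, and the core E2F6 motif TCCCGC on either strand; these patterns can share 1 end base, and no match shown here does. The E-box occurred in the windows of 5 genes (Ddx4, Mael, Sycp1, Sycp3 and Stk31) and was not found in those of Dazl, Asz1 and Tdrkh. Of all 32851 promoter windows 7.15% held it, and of the 21263 windows of protein-coding genes 7.84% did. The following 30-base stretches are shown because they let the bases around the motif be compared; each is written 5′ to 3′ on the strand of its gene, with the E-box in capitals.
Ddx4 (chr13:112652322-112652351, minus strand): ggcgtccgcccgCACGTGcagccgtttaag
Mael (chr1:166238950-166238979, minus strand): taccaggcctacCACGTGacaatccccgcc
Sycp1 (chr3:102936177-102936206, minus strand): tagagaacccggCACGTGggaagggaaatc
Sycp3, first site (chr10:88459511-88459540, plus strand): gccgttggctccCACGTGagaacgggcatg
Sycp3, second site (chr10:88459532-88459561, plus strand): acgggcatggagCACGTGctaggaggcggg
Stk31 (chr6:49395472-49395501, plus strand): aggccggccaccCACGTGaccagggctgcg

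The motif began 29 bases before the RefSeq start in Ddx4, 43 and 64 bases before it in Sycp3, 55 before the first Stk31 start, 94 in Sycp1 and 223 in Mael. The E2F6 core was present in the windows of Ddx4, Sycp1 and Sycp3 (1 match each) and of Mael (2 matches), and was not found in the other 4 genes. It occurred in 25.8% of the windows of protein-coding genes. Ddx4, Mael, Sycp1 and Sycp3 thus held both motifs, as did 2.67% of protein-coding windows.

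Dazl, Asz1 and Tdrkh lacked both motifs, yet Dazl and Asz1 had almost no reads in liver and Tdrkh had many. For Dazl and Tdrkh the 250 bases upstream of the start are given whole for comparison, with each CpG in capitals.
Dazl (chr17:50293621-50293870, minus strand): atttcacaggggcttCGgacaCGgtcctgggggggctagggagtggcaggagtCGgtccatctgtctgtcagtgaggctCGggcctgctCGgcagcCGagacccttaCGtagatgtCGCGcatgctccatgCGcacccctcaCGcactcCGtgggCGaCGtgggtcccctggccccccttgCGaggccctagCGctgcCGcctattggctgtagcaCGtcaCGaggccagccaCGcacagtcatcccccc
Tdrkh (chr3:94412994-94413243, plus strand): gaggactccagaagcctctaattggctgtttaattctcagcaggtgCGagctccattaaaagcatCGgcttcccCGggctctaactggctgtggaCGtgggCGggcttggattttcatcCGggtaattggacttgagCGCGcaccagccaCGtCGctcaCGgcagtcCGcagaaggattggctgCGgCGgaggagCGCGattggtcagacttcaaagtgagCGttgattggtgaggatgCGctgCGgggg

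Over the full 300 bases the Dazl window held 28 CpGs and the Tdrkh window 25, close numbers for a gene that was read in liver and one with almost no reads there. All 8 genes had at least as many CpGs as the median protein-coding window, which held 13. Sycp3 had the fewest, 15, and Ddx4 the most, 38, a number that exceeded the count in 93.5% of protein-coding windows. The ratio of observed to expected CpGs ran from 0.666 in Sycp3 to 0.978 in Ddx4, against a median of 0.567.

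**Figure D1:**
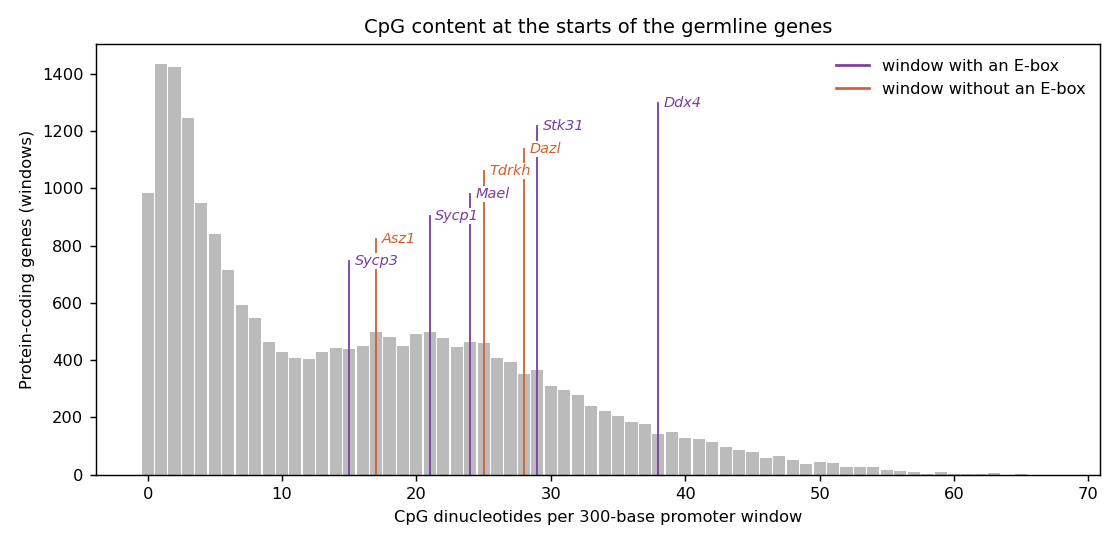
CpG dinucleotides in the 300-base promoter window of each protein-coding gene (grey bars, number of windows at each CpG count) with the germline genes marked by lines whose height has no meaning. Purple lines mark windows with an E-box and orange lines windows without one. The 8 genes lie between 15 (Sycp3) and 38 (Ddx4) CpGs, to the right of the tall peak of CpG-poor promoters.

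Some facts about the libraries bear on low counts. Reads on genes ranged from 4659656 to 7725432 per embryo, from 9857929 to 10386931 per ES line, from 5145371 to 8499603 per fetal liver and from 1567583 to 4757610 per adult liver. Levels are given as CPM, counts scaled by each library's total on genes. A gene with 3 reads, the limit that a count of 0 allows, would stand at 0.289 to 0.304 CPM in an ES line and at 0.631 to 1.91 CPM in an adult liver, and these limits cover counting error only. Markers matched the labelled tissues: 6 pluripotency genes summed to 2451 to 2777 CPM in the ES lines and to at most 7.10 CPM in any liver, and 6 hepatocyte genes to at least 20398 CPM in every liver. In fetal liver, haemoglobin genes Hbb-b1 and Hba-a1 were at or near 0, while the 4 erythroid markers that include them summed to 644 to 1056 CPM. Two-cell-like cells, which arise in ES cultures, were looked for by 5 markers that summed to 0.486 to 4.06 CPM in the ES lines. The 5 genes listed for primordial germ cells summed to 255 to 366 CPM there, with all 5 read. They summed to 2229 to 3850 CPM in the eight-cell embryos, more than in the ES lines. The part of two-cell-like or primordial germ cells in the results was not tested. In bulk tissue, fewer cells of a type and less RNA per cell cannot be told apart.

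Several libraries stood apart. Fetal liver female 14 carried intestinal transcripts, with 1480 CPM summed over Fabp2, Cdh17, Lct and Alpi against at most 7.44 CPM in the other 23 fetal livers (a list chosen after its values were seen). It held 10 of the 21 Sycp3 reads of fetal liver. Adult liver male 5 had reads of all 7 markers of haploid male germ cells, among them the protamine genes Prm1 and Prm2, at 10.5 CPM in sum against at most 1.49 CPM in the other 23 adult livers, and it held the only Sycp3 read of adult liver. It had reads of 5 of the 8 germline genes, against at most 3 in any other adult liver. Eight-cell embryo male 3 had reads of only 4 of the 8 genes, against 6 to 8 in the other embryos. Where their reads moved a call or a ratio by over 1.5 times, the value without them stands beside it.

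Levels across stages are plotted for each gene by library. ES lines, eight-cell embryos and livers were compared in pairs of stages with edgeR's quasi-likelihood test over all genes that passed a filter on low counts, and a gene was called changed when its Benjamini-Hochberg adjusted p was under 0.1 and its log2 difference exceeded 0.5 in size. ES lines enter both comparisons with liver, so those comparisons are not independent of each other.

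**Figure D2:**
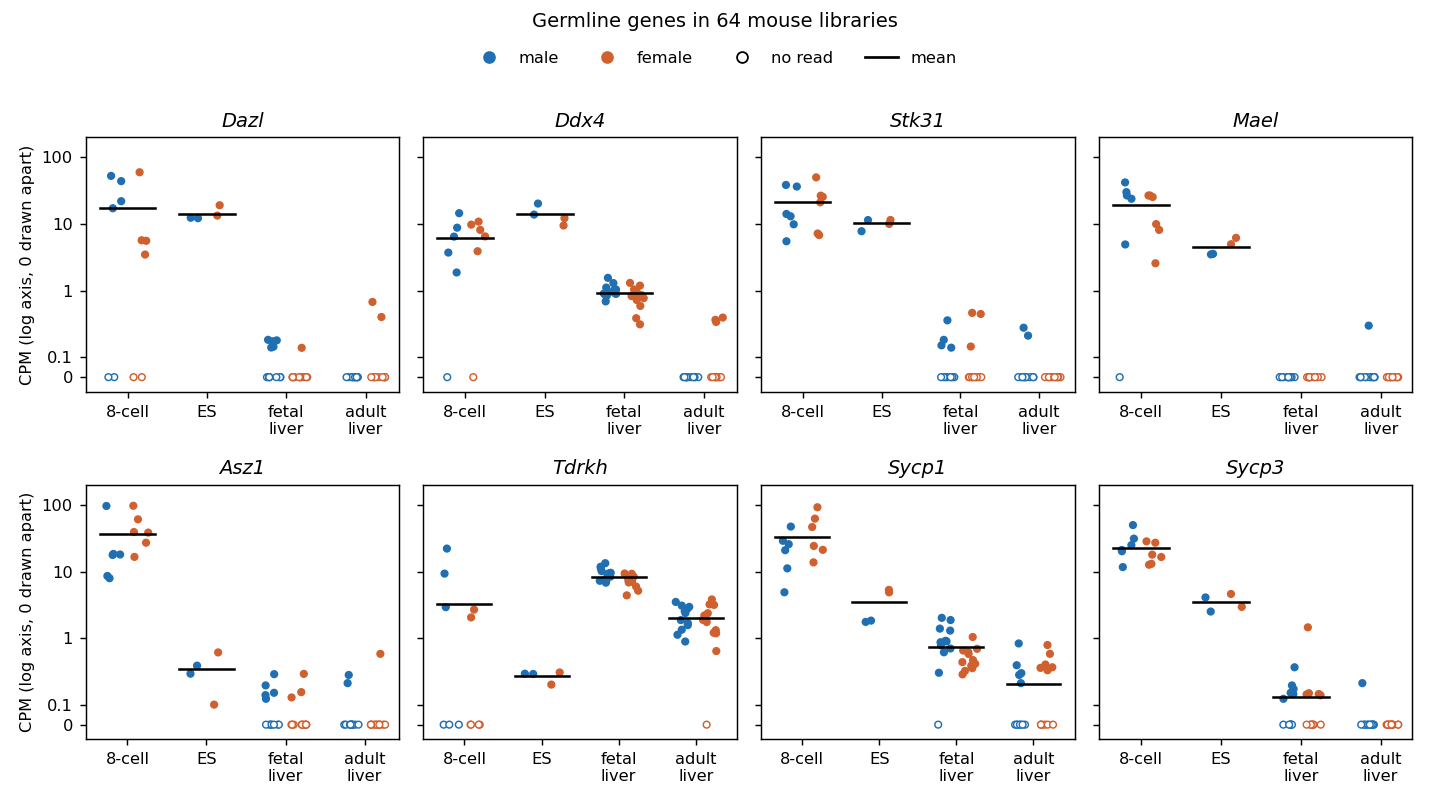
CPM (log axis) of the germline genes in each of the 64 libraries by stage, males in blue and females in orange, with open points at the bottom for libraries without a read and black lines for means of at least 0.1 CPM. Dazl, Stk31 and Mael have means from 4.56 to 21.3 CPM in embryos and ES lines and lie almost at 0 in liver, Asz1 has a mean of 37.2 CPM in embryos and 0.346 CPM in ES lines, and Tdrkh is higher in fetal liver than in ES lines.

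The first question was which of the genes were read in ES cells but not in liver. Dazl, Ddx4, Stk31, Mael, Sycp1 and Sycp3 were higher in ES lines than in fetal liver and than in adult liver, Tdrkh was lower in ES lines than in either, and Asz1 had too few reads to be tested. These 6 higher calls stand against a background in which 35.3% of 14858 genes tested were called higher and 41.2% lower in ES lines than in fetal liver, and 41.2% of 13102 genes higher and 40.4% lower than in adult liver. The same 6 genes passed the filter in comparisons that include the ES lines and not in those of liver with liver, so a difference was to be found once they passed. A count that does not need the filter is that of genes whose 4 ES lines all lay above all 24 livers: 5 of the 8 germline genes for fetal liver, where 28.6% of all genes with a read did so, and 6 of the 8 for adult liver, where 38.9% did.

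Dazl (chr17:50279395-50293636, minus strand; all gene positions are on GRCm38) encodes an RNA-binding protein that germ cells need to translate their messages. Male ES lines 1 and 2 had 129 and 126 reads (12.4 and 12.2 CPM) and female lines 3 and 4 had 134 and 189 (13.4 and 19.2 CPM). The 24 fetal livers had 6 reads in all and never more than 1 each, and the 24 adult livers had 3 reads, 2 of them in 1 female. The ES lines did not overlap either group of livers. The log2 difference was 8.01 (SE 0.268, adjusted p = 4.51e-23) against fetal liver and 7.21 (SE 0.346, adjusted p = 8.04e-17) against adult liver. With all reads of a stage pooled, Dazl was 385 times higher in ES lines than in fetal liver, with a 95% counting interval of 176 to 1054, and 315 times higher than in adult liver, with an interval of 107 to 1532.

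Ddx4 (chr13:112598333-112652475, minus strand), also known as Vasa, encodes the RNA helicase of the germ granule. It had 144 and 209 reads (13.9 and 20.3 CPM) in the male ES lines and 95 and 121 reads (9.50 and 12.3 CPM) in the female lines. Ddx4 differed from Dazl in fetal liver, where each of the 24 libraries had from 2 to 9 reads, with a median of 6, and levels from 0.311 to 1.55 CPM. In adult liver only 3 reads were counted, 1 each in 3 females. The ES lines lay above all livers, by 3.71 on the log2 scale (SE 0.154, adjusted p = 1.36e-20) against fetal liver and by 7.15 (SE 0.332, adjusted p = 3.89e-17) against adult liver. Pooled over libraries, the fetal level was 19.8 times the adult level, with a counting interval of 6.63 to 96.9.

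Stk31 (chr6:49395604-49469501, plus strand), which encodes a Tudor domain protein with a kinase domain, had 81 and 118 reads (7.80 and 11.5 CPM) in the male and 115 and 99 reads (11.5 and 10.04 CPM) in the female ES lines. It had 12 reads over 24 fetal livers, with none in 17 of them, and 2 reads over 24 adult livers. The ES lines lay above all livers, with log2 differences of 6.63 (SE 0.365, adjusted p = 2.82e-17) against fetal and 7.09 (SE 0.347, adjusted p = 1.33e-16) against adult liver. Pooled, its level in ES lines was 338 times the adult level, with a counting interval of 92.9 to 2798. Adult liver male 5 held 1 of the 2 adult reads, and without it the ratio was 627 (111.9 to 24822).

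Mael (chr1:166201201-166238747, minus strand) encodes Maelstrom, a piRNA pathway protein. It had 37 and 36 reads (3.56 and 3.50 CPM) in the male and 62 and 49 reads (6.2 and 4.97 CPM) in the female ES lines. No fetal liver had a Mael read. A floor of 3 reads over the 24 libraries would stand at 0.0185 CPM, and the pooled level in ES lines was 245 times that floor. The two-sided 95% counting interval of the ratio to fetal liver began at 198. Adult liver had 1 read, in male 12, and the difference from ES lines was called there too, with a log2 of 6.19 (SE 0.401, adjusted p = 6.64e-14). The pooled ratio of 301 had a counting interval of 53.3 to 11949, as wide as a single read makes it.

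Sycp1 (chr3:102818499-102936100, minus strand) and Sycp3 (chr10:88459569-88473236, plus strand) encode the transverse filament and the axial element of the synaptonemal complex. Sycp1 had 19 and 18 reads (1.83 and 1.75 CPM) in the male and 53 and 48 reads (5.30 and 4.87 CPM) in the female ES lines. Fetal livers had from 0 to 15 reads with a median of 4.5, at 0 to 2.01 CPM, so that the highest fetal livers overlapped the male ES lines and lay below the female ones. Adult livers had 14 reads in all. The log2 difference was 1.87 (SE 0.305, adjusted p = 1.33e-06) against fetal and 2.96 (SE 0.355, adjusted p = 1.02e-09) against adult liver.

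Sycp3 had 26 and 42 reads (2.5 and 4.08 CPM) in the male and 46 and 29 reads (4.60 and 2.94 CPM) in the female ES lines. Fetal livers had 21 reads, of which the 10 in female 14 made 1.45 CPM and the other 23 livers had 11 reads in sum. All ES lines lay above all livers. The log2 difference from fetal liver was 4.47 (SE 0.472, adjusted p = 2.92e-10) with that library and 5.18 without it, and that from adult liver was 5.86 (SE 0.435, adjusted p = 1.21e-12) with adult male 5 and 6.39 without it. Against its single adult read the pooled ratio was 234, with a counting interval of 41.3 to 9301. That read lay in adult liver male 5, and without it adult liver had none. The ES level was then 72.4 times a floor of 3 reads over the group, and the counting interval of the ratio began at 58.1. Against fetal liver the pooled ratio was 27.2 with female 14 and 49.8 (27.0 to 102) without it. Sycp3 lies inside Chpt1, a phospholipid synthesis gene on the opposite strand whose exons overlap its own. Chpt1 stood at 212 CPM in adult liver, where Sycp3 had 1 read, at 120 CPM in eight-cell embryos and at 23.6 CPM in ES lines. The part of Chpt1 reads in the Sycp3 counts of any stage was not tested. The strand setting of the counting is not given in the sources used here.

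Asz1 (chr6:18050964-18109061, minus strand), which encodes a mitochondrial scaffold of the piRNA pathway, was close to the limit of counting in ES lines, with 4, 3, 1 and 6 reads in lines 1 to 4 (0.10 to 0.609 CPM). It did not pass the filter against either liver. Fetal livers had 10 reads and adult livers 3, and the ES level was 5.60 times the fetal level with a counting interval of 2.31 to 14.1. Without the filter the difference from fetal liver was called, with a log2 of 2.08 (adjusted p = 0.00232), and of 2.37 (adjusted p = 0.000239) without fetal female 14, which held 2 of the 10 reads.

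Tdrkh (chr3:94413273-94434668, plus strand; the gene Oaz3 overlaps it on the other strand, at no more than 0.263 CPM on average in any stage) encodes a Tudor and KH domain protein that acts on piRNA trimming at the mitochondrial surface. The ES lines had 3, 3, 2 and 3 reads (0.20 to 0.304 CPM), each at or under 3 reads. Fetal livers had from 32 to 93 reads with a median of 57, at 4.38 to 13.3 CPM, and adult livers from 0 to 14 reads with a median of 5.5, at 0 to 3.81 CPM. The highest ES line lay below every fetal liver, and the share of all genes of which this holds was not counted. Pooled, the ES level was 0.0327 of the fetal level, with a counting interval of 0.0163 to 0.0588. Tdrkh fell by 5.03 on the log2 scale in ES lines against fetal liver (SE 0.280, adjusted p = 3.63e-17) and by 3.42 against adult liver (SE 0.397, adjusted p = 5.02e-10). Whether Tdrkh was tested against adult liver turned on 1 library: without male 5, whose 14 reads were the most of any adult liver, it no longer passed the filter. The size of the difference moved little, since the pooled ES level was 0.132 of the adult level with male 5 and 0.137 without it, and without both that library and the filter the log2 was -3.27 (adjusted p = 3.05e-09).

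**Figure D3:**
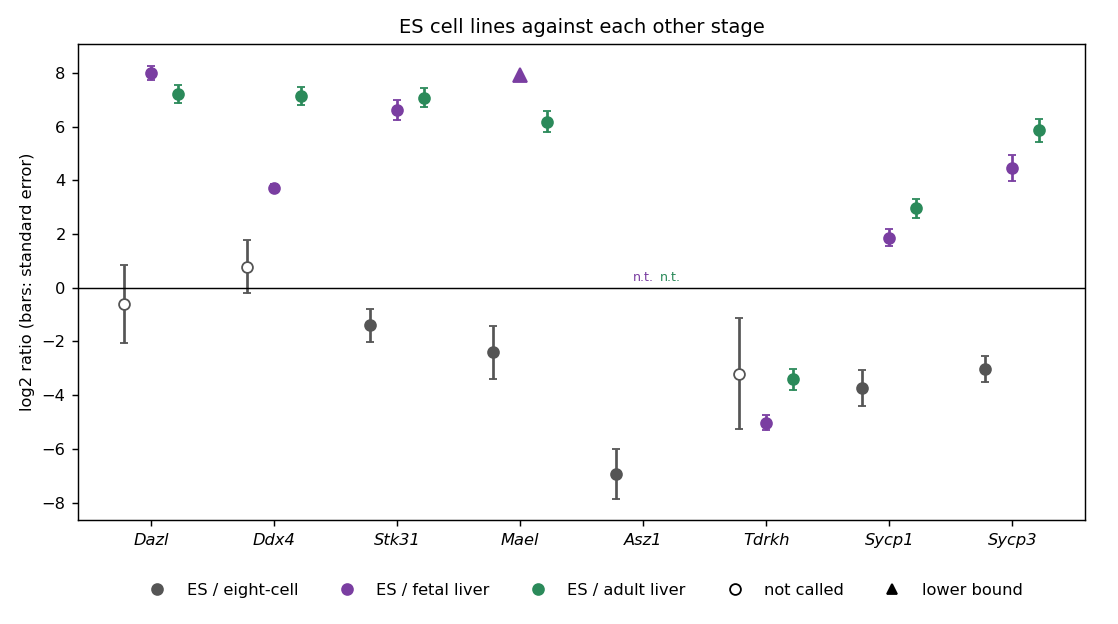
Log2 ratio of the 4 ES lines over 12 eight-cell embryos (grey), 24 fetal livers (purple) and 24 adult livers (green) for each germline gene, from edgeR, with bars for the standard error, open points where the difference was not called and n.t. where the gene was not tested. The triangle for Mael marks the ratio to a floor of 3 reads over fetal liver, where it had no read. Liver points lie above 0 for 6 genes and below 0 for Tdrkh, while embryo points lie below 0 except for Ddx4.

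The second question was how the ES lines compared with the embryos that such lines derive from. Asz1, Sycp1, Sycp3, Mael and Stk31 were called lower in ES lines than in eight-cell embryos, none of the 8 was called higher, and Dazl, Ddx4 and Tdrkh were not called. Of 13511 genes tested 37.4% were called higher and 25.9% lower, with a median log2 of 0.47 over all genes. None of the 8 genes had all ES lines above all embryos, as 33.3% of genes with a read did. At an unadjusted p under 0.05 no further gene of the set passed, limma voom with sample weights called 1 higher (Ddx4, log2 1.56), and DESeq2 called none higher. Without embryo male 3 the same 5 genes were called lower.

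Asz1 had the widest gap. Its 12 embryos had from 37 to 537 reads (7.94 to 97.3 CPM, median 22.7) and the ES lines at most 6 reads. Pooled, the embryo level was 104 times the ES level, and the log2 difference was -6.93 (SE 0.927, adjusted p = 1.43e-05). The groups of Sycp3 did not overlap either, and the share of all genes with every ES line below every embryo was not counted. Its embryos had from 71 to 266 reads (11.7 to 49.9 CPM, median 20.6), with a log2 of -3.02 (SE 0.489, adjusted p = 8.99e-05). Sycp1 had from 26 to 510 reads in embryos (4.88 to 92.4 CPM, median 25), and the lowest embryo, male 1, overlapped the female ES lines, with a log2 of -3.74 (SE 0.676, adjusted p = 0.000257).

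Mael and Stk31 were nearer the threshold. Mael had from 0 to 233 reads in embryos (0 to 42.2 CPM, median 24.7) and a log2 of -2.41 (SE 0.995, adjusted p = 0.0495), and Stk31 had from 34 to 282 reads (5.51 to 50.2 CPM, median 17.7) and a log2 of -1.41 (SE 0.617, adjusted p = 0.0630). In both, embryos lay on each side of the ES lines. Leaving out any 1 of the 4 ES lines ended both calls, with adjusted p from 0.126 to 0.145 for Mael and from 0.122 to 0.191 for Stk31. Dazl, Ddx4 and Tdrkh had log2 values of -0.59 (SE 1.46, adjusted p = 0.749), 0.79 (SE 0.983, adjusted p = 0.513) and -3.20 (SE 2.07, adjusted p = 0.20). Beside these wide errors stands a biological coefficient of variation of 0.872 across the fit, against 0.146 in that of ES lines and fetal liver.

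The embryos differed widely among themselves. Dazl had no read in 4 of the 12 (males 1 and 3, females 9 and 10) and from 26 to 341 reads in the other 8, so that its CPM ran from 0 to 60.0 with a median of 5.65. Tdrkh had no read in 7 embryos and 118 reads in male 1, and Ddx4 had none in male 3 and female 7. Sycp1, Sycp3, Stk31 and Asz1 were read in all 12. The coefficient of variation over embryos was 127% for Dazl and 201% for Tdrkh against 46.6% for Sycp3, whereas over the 4 ES lines it was 22.9%, 17.7% and 27.6%. The ES value for Tdrkh rests on 11 reads over the 4 lines, too few to measure a spread between them. How much of the spread over embryos came from the amplification of their RNA was not tested.

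**Figure D4:**
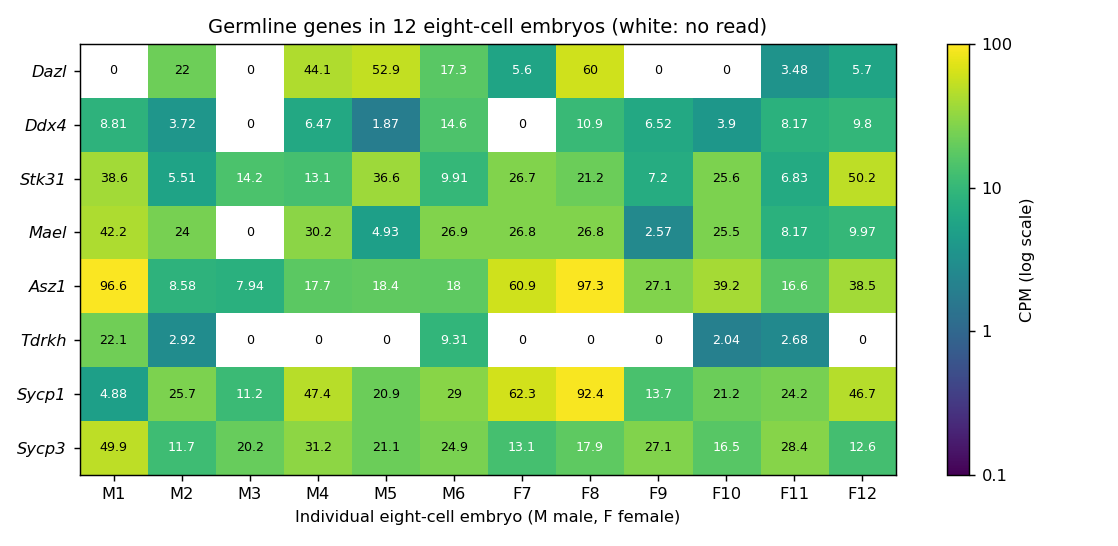
CPM of the germline genes in each of the 12 eight-cell embryos, coloured on a log scale from 0.1 to 100 CPM with white cells where no read was counted. Dazl and Tdrkh run from 0 to 60.0 and to 22.1 CPM between embryos, while Sycp1, Sycp3, Stk31 and Asz1 have reads in all 12.

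Transcripts of oocyte genes were read in the embryos, and whether they were inherited from the oocyte was not tested. The 9 oocyte markers, among them Zp3 and Gdf9, summed to 94.7 to 199 CPM in the embryos with only Figla at 0, against 6.80 to 22 CPM in ES lines and at most 1.27 CPM in any liver. Of 8 oocyte markers tested, 7 were called lower in ES lines than in embryos, where 25.9% of 13511 genes were. The part of maternal RNA in the embryo levels of the germline genes was not tested. Embryos lay above all 24 fetal livers for 4 of the 8 genes, Sycp1, Sycp3, Stk31 and Asz1, where 11.3% of genes with a read did so.

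Levels can be set against each other between genes only per length of transcript. Per kilobase of exon, the mean order in ES lines was Ddx4 (4.64 CPM per kb), Dazl (3.75), Stk31 (3.15), Sycp3 (2.79), Mael (2.63), Sycp1 (0.966), Asz1 (0.122) and Tdrkh (0.0441). In embryos the order began with Sycp3 (18.1 CPM per kb), Asz1 (13.2) and Mael (11) and ended with Ddx4 (2.07) and Tdrkh (0.530). Whether reads of the amplified embryo libraries scale with exon length was not tested, which limits that order. In fetal liver Tdrkh (1.35 CPM per kb) and Ddx4 (0.301) led. Neighbours in the ES order from Ddx4 to Mael overlapped in their ranges over the 4 lines.

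Between fetal and adult liver only Tdrkh passed the filter. It fell by 1.46 on the log2 scale in adult liver (SE 0.145, adjusted p = 9.90e-14), in a comparison in which 31.7% of 13026 genes were called higher and 35.4% lower in adult than in fetal liver. Without the filter Ddx4, Sycp1 and Sycp3 were also called lower in adult liver, with log2 values of -3.71, -1.16 and -1.80 (adjusted p = 4.45e-12, 0.00392 and 0.0356). That fit called 4 of the 8 germline genes, and 11686 of all 19519 genes in either direction. The Sycp3 call compares 21 fetal reads, 10 of them in female 14, with 1 adult read, in male 5. Its log2 was -1.15 (adjusted p = 0.134) without female 14, -2.42 (adjusted p = 0.0261) without male 5 and -1.76 (adjusted p = 0.0325) without both, which leaves 11 reads against none and a pooled ratio whose counting interval began at 0.995, while the Ddx4 and Sycp1 calls held in all 3 settings.

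A further question was whether the male and female ES lines differed. Sycp1 was called higher in female lines, with a log2 male over female of -1.54 (SE 0.287, adjusted p = 0.0439). Its 18 and 19 reads in the male lines were fewer than the 48 and 53 reads in the female lines. Of 12678 genes tested 3.42% were called higher and 6.08% lower in male lines, which is the background for this 1 call among 6 genes tested. Ddx4 (log2 0.61, adjusted p = 0.22), Mael (-0.70, adjusted p = 0.192) and Dazl (-0.44, adjusted p = 0.297) were not called. Their male and female lines did not overlap either. With 2 lines of each sex this shows little, and the share of all genes of which it holds was not counted. Stk31 (-0.20, adjusted p = 0.667) and Sycp3 (-0.23, adjusted p = 0.752), whose male and female lines overlapped, were not called. Asz1 and Tdrkh were not tested. With female line 3 or 4 left out, 1 female line was compared with 2 male lines, on the assumption that it varies like them, and no gene of any kind was called, although 1290 and 1163 genes had an unadjusted p under 0.05. Sycp1 then had log2 values of -1.48 and -1.60 with adjusted p of 0.439 and 0.427. With male line 1 left out, a single male line was compared with 2 female lines. Ddx4 and Mael were called there as well, but calls over all genes rose too, so the added calls were not particular to these genes.

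**Figure D5:**
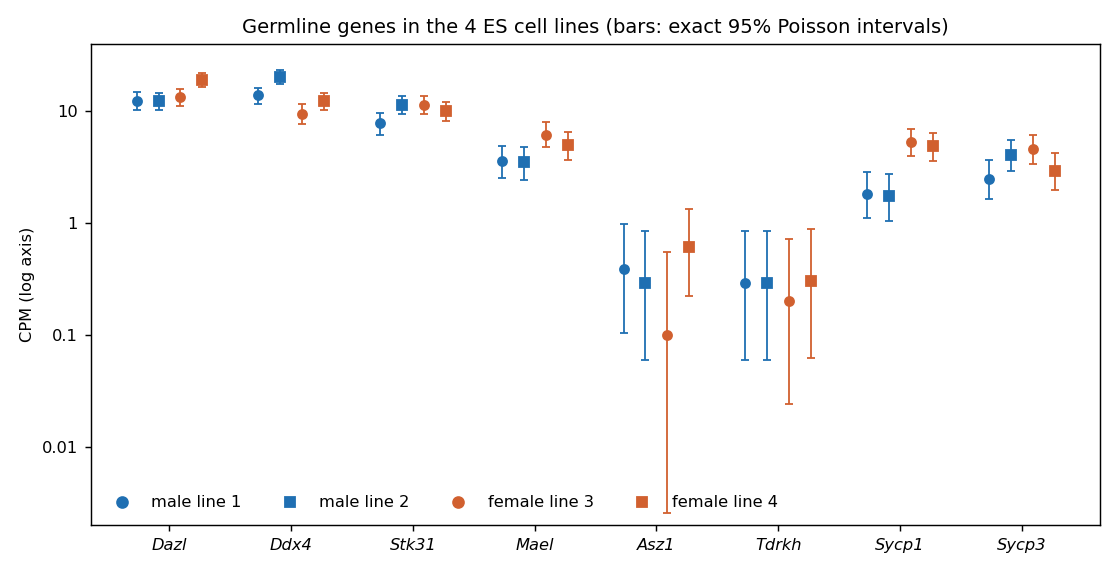
CPM (log axis) of the germline genes in the 4 ES lines, male lines in blue and female lines in orange, with bars for exact 95% Poisson counting intervals. The Sycp1 points of the female lines (5.30 and 4.87 CPM) lie above those of the male lines (1.83 and 1.75 CPM), and the points of Asz1 and Tdrkh have intervals that span more than a factor of 10 in at least 1 line.

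In eight-cell embryos, edgeR called none of the 7 germline genes it tested between the sexes, none had an unadjusted p under 0.05, and DESeq2 called none. Of 9087 genes 0.044% were called higher and 0.22% lower in male embryos. Sycp1 had a log2 of -0.95 (SE 0.519), the same sign as in the ES lines, with an adjusted p of 1.00. In fetal liver Tdrkh ranged from 6.80 to 13.3 CPM in males and from 4.38 to 9.34 CPM in females, with a log2 of 0.35 (SE 0.124, adjusted p = 0.0354) that stayed under the fold threshold, where 3.81% of 12930 genes were called higher and 0.828% lower in males. Male fetal livers had from 39.9% to 49.0% of their reads outside genes and female ones from 34.1% to 38.1%, without overlap. Sex and that share can therefore hardly be told apart. With that share in the model the Tdrkh log2 was -0.15, a value that does not separate them. In adult liver no germline gene passed the filter.

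Other genes of the same processes were described from lists of 20 piRNA and germ granule genes and 22 genes of synapsis and meiosis, which do not contain the 8. Of the piRNA genes 14 were tested against fetal liver, and 12 were higher and 1 lower in ES lines, with a median log2 of 3.56 against -0.08 for all genes. Of the meiosis genes 16 were tested, and 13 were higher and 2 lower, with a median log2 of 3.29. Genes that passed the filter only through the ES lines had to differ, which limits what these counts show. Without the filter, 13 of the 20 and 13 of the 22 had every ES line above every fetal liver, where 28.6% of genes did.

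Several listed genes had far higher CPM in ES lines than the 8, in values that were not scaled to the length of the transcripts. Rnf17, a Tudor protein of the germ granule, stood at 249 ± 28.3 CPM (SD, n = 4) in ES lines and 5.00 ± 1.07 CPM (n = 24) in fetal liver, with a log2 of 5.43. Tdrd12 stood at 168 ± 23.1 CPM and 0.0866 ± 0.104 CPM, and Tex19.1, a gene known to depend on promoter methylation, at 126 ± 18.2 CPM and 0.0294 ± 0.0587 CPM. Of the meiosis list Hormad1, Tex15 and Tex14 led in ES lines, with 66.5 ± 48.2, 54.9 ± 17.4 and 37.5 ± 30.2 CPM. Tdrd7, which had 57.6 ± 5.21 CPM in fetal liver and 5.31 ± 1.94 CPM in ES lines, was lower in ES lines, as Tdrkh was.

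Against embryos 37.4% of all genes were called higher and 25.9% lower in ES lines. Of 17 piRNA genes tested 6 were higher and 5 lower in ES lines, with a median log2 of 0.41, and of 20 meiosis genes 4 were higher and 5 lower, with a median of -0.60, against 0.47 for all genes. Against adult liver 9 of 10 piRNA genes tested were higher and 1 lower, and 11 of 12 meiosis genes were higher and 1 lower, where 41.2% of all genes were higher and 40.4% lower and where listed genes that passed the filter through the ES lines alone had to differ. Adult and fetal liver differed in 4 piRNA genes tested, 1 higher and 3 lower in adult, and in 4 of 5 meiosis genes, 1 higher and 3 lower, against 31.7% of all genes higher and 35.4% lower.

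Between male and female ES lines the lists gave calls in both directions. Piwil2, a PIWI protein that binds piRNAs, was called higher in female lines (16.3 and 16.4 against 5.78 and 9.72 CPM, log2 -1.12, adjusted p = 0.0830). The meiosis genes Hormad1 (log2 -1.98, adjusted p = 0.0740) and Dmc1 (log2 -0.76, adjusted p = 0.0961) were higher in female lines, and Tex14 (log2 2.25, adjusted p = 0.0152) and Stag3 (log2 0.90, adjusted p = 0.0908) were higher in male lines. Hormad1 varied within each sex too, from 14.6 to 40.2 CPM in the male and from 89.3 to 122 CPM in the female lines. In all 1 of 14 piRNA genes and 4 of 13 meiosis genes tested were called, where 3.42% of all genes were higher and 6.08% lower in male lines.

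Factors that act on germline promoters were described as well. Of 17 genes of PRC1.6, of histone modification and of DNA methylation all were tested against fetal liver, and 12 were higher and 1 lower in ES lines, with a median log2 of 1.25, where 35.3% of all genes were higher and 41.2% lower and their median was -0.08. Against adult liver 13 were higher and 1 lower, where 41.2% of all genes were higher and 40.4% lower. Mga stood at 754 ± 76.9 CPM in ES lines and 226 ± 27.1 CPM in fetal liver, Uhrf1, which brings DNMT1 to replicated DNA, at 708 ± 44.8 and 230 ± 31.1 CPM, and Dnmt1, the maintenance methyltransferase, at 513 ± 10.5 and 320 ± 28.6 CPM. The last had a log2 of 0.49, just under the fold threshold. The gene called lower was Dnmt3a, a methyltransferase that sets new marks. E2f6 (log2 -0.35) stayed under it as well. Dnmt3l, which stimulates the enzymes that set new marks, was the gene of this list called between ES lines of the sexes, at 30.2 and 32.3 CPM in the male and 63.9 and 64.6 CPM in the female lines (log2 -1.07, adjusted p = 0.0115).

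In adult against fetal liver, 12 of 16 genes of this list were lower and 1 was higher, where 35.4% of all genes were lower and 31.7% higher. Of the enzymes that oxidise methylcytosine, Tet1 (574 ± 83.3 CPM in ES lines, 12.5 ± 3.36 CPM in fetal liver) and Tet2 (271 ± 88.2 and 63.6 ± 10.4 CPM) were higher in ES lines and Tet3 (6.65 ± 4.0 and 66.0 ± 22.1 CPM) was lower. Tet3 was also called between the sexes, at 2.33 and 4.24 CPM in the male and 9.40 and 10.7 CPM in the female lines. Whether any of these factors bears on the germline genes was not tested.

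The genes whose profile over the 64 libraries was most like that of each germline gene, by Pearson's r of log2 CPM over 15735 genes, are a description in which the libraries share their stage and its protocol. For Sycp3 they were Stmn3, Slc1a1 and Hsd17b14 (r = 0.986, 0.9825 and 0.9825), for Asz1 Gm11544, Klf17 and Trim43c (0.980, 0.978 and 0.977), and for Stk31 Pramef12, AU018091 and Zp3 (0.978, 0.976 and 0.975). Sycp1 was most like Larp4, Rnf115 and Rab11fip1 (0.9548, 0.954 and 0.952), and Mael like Pkd1l2, Pusl1 and Gm128 (0.953, 0.943 and 0.940). Ddx4 was nearest to Nat10, Tyro3 and Gdf3 (0.923, 0.908 and 0.903), Dazl to Riok2, Polr3a and Tomm70a (0.893, 0.880 and 0.870) and Tdrkh to Klhdc2, Nckap5 and Hipk2 (0.841, 0.831 and 0.818). No germline gene of the set was among the 3 nearest of another.

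The E-box split was set beside expression as a description. Of all genes tested 35.3% were called higher in ES lines than in fetal liver, and genes that passed the filter only through the ES lines, as 6 of the 8 did, had to differ. The 5 genes with an E-box in the window were all called higher in ES lines than in fetal liver, and of the 3 without it Dazl was called higher, Tdrkh lower and Asz1 was not tested. In the list of piRNA genes, 6 of 15 with a RefSeq window held the motif, 5 of those 6 were tested and 5 were higher. Of the 9 without it 5 were tested, 4 higher and 1 lower. In the meiosis list 7 of 19 held it, 5 of the 7 were tested, 4 higher and 1 lower, and of the 12 without it 9 were tested, 7 higher and 1 lower.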

How the data were processed

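The deposited values are raw, unnormalized counts, made by the authors with HTSeq over 23338 genes after alignment to mm10 (TopHat 2.0.4, Bowtie2 2.1.0, SAMtools 0.1.18, per the submitters' processing notes) and removal of duplicate reads with Picard. Removing duplicates lowers the counts of abundant transcripts. Rows for reads outside genes or not uniquely aligned were left out of totals. No 2 libraries were identical. The genes and lists were chosen with earlier results of these data known.

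CPM were reads over the total on genes. Comparisons of stages and sexes used edgeR 4.0.16 under R 4.3.3 (TMM, filterByExpr, robust quasi-likelihood F test, two-sided), each on the samples of that comparison alone, over all genes that passed the filter, with Benjamini-Hochberg adjustment; the call needed an adjusted p under 0.1 and a log2 over 0.5 in size. P-values measure the spread between these samples. DESeq2 1.42.0 and limma 3.58.1 were used in alternatives. Intervals are exact (Poisson or Clopper-Pearson, 95%) and cover counting error only. Likeness used log2 CPM with a pseudocount of 0.5. Named genes were the 8, the 3 most abundant of each list in ES lines, listed genes called between ES lines of the sexes and the 3 genes nearest to each of the 8; others named were chosen after their values were seen. Promoter windows came from RefSeq and positions from the GENCODE annotation of GRCm38. The fits were tested on simulated data. Summaries used Python 3.11.15, pandas 2.3.3 and scipy 1.17.1.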

Additional observations from a re-analysis of the deposited data

Results flagged for a closer look

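In 24 groups of 4 or 6 samples, 4 values stood far from the rest by Dixon's criterion, which chance meets in about 1 of 20 groups of normally distributed values. Counts of few reads and embryos without a read do not have that shape, so the number of such values cannot be read as an excess. Dazl in ES female line 4 (19.2 CPM) lay apart above the other 3 lines, and Tdrkh in ES female line 3 (0.20 CPM) below them, the latter by a single read. Dazl in eight-cell female embryo 8 (60.0 CPM) and Asz1 in eight-cell male embryo 1 (96.6 CPM) lay above the other 5 embryos of their sex. The male to female difference of Sycp1 differed between ES lines and fetal liver, by -2.44 on the log2 scale (edgeR interaction, adjusted p = 0.00938): both female ES lines had more reads than both male lines, whereas fetal livers averaged 0.968 ± 0.589 CPM in males and 0.519 ± 0.211 CPM in females (n = 12 each). Of 14858 genes 15.1% were called in that interaction, and 1 of the 7 germline genes tested was. Male fetal livers had from 39.9% to 49.0% of their reads outside genes and female ones from 34.1% to 38.1%, without overlap. That share was not in the interaction model, and its part in the Sycp1 difference was not tested. With it in the model of fetal livers alone, where it and sex can hardly be told apart, calls between the sexes over all genes fell from 600 to 9. The difference of Ddx4 between the sexes also differed between ES lines and adult liver, by 2.90 (adjusted p = 0.0870), where the adult livers held 3 reads, all in females; 12.5% of 13102 genes were called there.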

How the results depend on the processing

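Values are log2 differences. Higher calls of the 8 genes in ES lines against either liver numbered 6 or 7 under every alternative tried; Asz1 joined without the filter and with all 64 samples in 1 fit. Without adult liver male 5, 0 genes of the set were lower against adult liver, since Tdrkh was filtered out. Against embryos, leaving out 1 ES line gave 3 lower calls each time, for Asz1, Sycp1 and Sycp3, and voom with sample weights gave 1 higher call and turned Dazl to 1.02, where the median of all genes was 0.91. Stk31 also lost its call with DESeq2 size factors (log2 -1.09) and with library totals (-1.06), and Tdrkh gained one with all 64 samples in 1 fit (-3.17). Without the filter and with all 64 samples in 1 fit, 4 genes were lower in adult than in fetal liver. In these fits 11686 of 19519 and 10148 of 15736 genes were called in either direction. Without both the filter and fetal female 14, 3 were lower, and without the filter and adult male 5, or both livers, 4. Between ES lines of the sexes, leaving out 1 line gave 0 to 1 higher and 0 to 2 lower calls; Sycp3 ranged from -0.62 to 0.12 and Stk31 from -0.50 to 0.045, and all genes called from 0 to 3070, against 1205. Between embryos of the sexes DESeq2 called 64 genes against 24 by edgeR, and Ddx4 turned to 0.040 without male embryo 3. Between fetal livers of the sexes the unfiltered fit called 1057 genes against 600, with 1 of the set higher (Sycp1, log2 0.89). The share of reads outside genes as a covariate, which can hardly be told apart from sex there, left 9 and turned Tdrkh to -0.15. In adult liver 1518 genes were called without the filter against 984. Library totals in place of TMM, which like the sets without female fetal liver 14, male adult liver 5 or male embryo 3 were tried after seeing the data, moved the median of all genes to 0.11 against fetal and 0.75 against adult liver, to 0.82 against embryos, and to -0.61 in adult against fetal liver, where Tdrkh fell by 2.03; the cause was not tested. With the replicate block, in fetal and adult livers, Tdrkh kept a log2 of -1.46 and calls of all genes went from 8742 to 8753. Same-numbered fetal and adult livers share only a number: the correlation of their deviations had a median of -0.00445 and reached at most 0.0459 over 24 pairs.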
